A study of Mus musculus with 41 samples.

Results

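The genes described here are 10 regulators of entry into the cell cycle: the Cip/Kip inhibitors Cdkn1a, Cdkn1b and Cdkn1c, the INK4 inhibitors Cdkn2a, Cdkn2b and Cdkn2c, the D-type cyclins Ccnd1, Ccnd2 and Ccnd3, and the E-type cyclin Ccne1. They were chosen by name, and all 10 were found among the 21755 protein-coding genes annotated on chromosomes 1 to 19 and X. For each gene, peaks of 4 histone post-translational modifications (hPTMs) were read over its promoter, defined as 2000 bp on either side of every annotated transcription start site (TSS), and over its gene body with 10 kb on either side. A promoter is called marked where at least 1 bp of it lies in a peak. Promoters ranged from 4001 bp at Cdkn2b, with 1 start site, to 13235 bp at Ccnd2, with 7. Longer promoters can be called more easily.

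The peaks come from CUT&Tag, an assay in which an antibody against a histone mark directs a transposase to cut and tag the DNA beside it. H3K18la (lactylation of lysine 18 of histone H3) was profiled in 8 cell types, H3K27me3 in 7, H3K27ac in 5 and H3K4me3 in 4, which gives 24 peak lists from 41 samples. Of these lists, 17 pool 2 samples and 7 rest on 1 sample, among them both lists of myoblasts (MB) and all 3 of bone marrow-derived macrophages (BMDM). Because the replicates were pooled before peaks were called, a list carries no replicate error, and differences between 2 lists are given as values without a test.

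Embryonic stem cells of the line E14, a single cultured line, were grown in serum with LIF at 10 ng/ml (mESC-ser) or in 2i medium with the same LIF, 1 µM of the MEK inhibitor PD0325901 and 3 µM of the GSK3 inhibitor CHIR99021 (mESC-2i). MB were primary cells in growth medium with serum and FGF, and myotubes (MT) were made from MB by 3 days in low-serum differentiation medium. Gastrocnemius muscle (GAS) came from female mice of 8 to 12 weeks, labelled C57BL/6 and named C57Bl6/J in the study's methods. Post-ischemia macrophages (PIM) were sorted on CD45, CD11b, F4/80 and CD64 from calf muscle of mice of the same sex, strain and age, 2 days after arteries of the hind limb had been ligated. BMDM were marrow precursors of mice labelled C57BL/6, cultured for 7 days with M-CSF. Adipocyte nuclei (ADIPO) came from the epididymal fat of 10-week-old AdipoCre-NuTRAP mice, described as female, and were caught on streptavidin beads. This step selects for cells in which the adipocyte-specific Cre had been active. Stem cells entered the assay as whole cells and all others as nuclei, and all buffers contained sodium butyrate, an inhibitor of histone deacetylases.

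Cyclins of the D type bind and activate CDK4 and CDK6 in response to growth signals, and cyclin E then activates CDK2, which together lead to phosphorylation of the retinoblastoma protein and entry into S phase. INK4 proteins bind CDK4 and CDK6 and keep D cyclins away from them. Proteins of the Cip/Kip family bind complexes of cyclins and CDKs, mainly those with CDK2. Cdkn2a is unusual in that its transcripts start at separate promoters and encode unrelated proteins: p16Ink4a, an INK4 inhibitor, and p19Arf, which stabilises p53. The Cdkn2a-Cdkn2b locus is a textbook target of Polycomb complexes, which deposit H3K27me3, while H3K4me3, H3K27ac and H3K18la are found at active regulatory regions. Differentiation of myoblasts into myotubes involves a permanent exit from the cell cycle.

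Marks differed between start sites of the same gene at Cdkn2a and Cdkn1a, and also at Cdkn2c (H3K18la in PIM and H3K27me3 in mESC-ser) and Ccnd3 (H3K27ac in GAS and ADIPO). The promoters of Cdkn2a and Cdkn1a are shown first, with that of Cdkn2b, which lies next to Cdkn2a. Each sequence is taken from RefSeq on GRCm38.p6 (the build mm10), reads 5′ to 3′ on the strand of the gene, and runs from 250 bp before to 50 bp after the start site. CG dinucleotides are in capitals. The Arf start lies on chromosome 4 at chr4:89294570-89294869 and the Ink4a start at chr4:89282143-89282442, both on the minus strand, as is Cdkn2b at chr4:89310983-89311282. The upstream start of Cdkn1a is at chr17:29090729-29091028 and its downstream start at chr17:29093519-29093818, both on the plus strand.
Cdkn2a Arf start: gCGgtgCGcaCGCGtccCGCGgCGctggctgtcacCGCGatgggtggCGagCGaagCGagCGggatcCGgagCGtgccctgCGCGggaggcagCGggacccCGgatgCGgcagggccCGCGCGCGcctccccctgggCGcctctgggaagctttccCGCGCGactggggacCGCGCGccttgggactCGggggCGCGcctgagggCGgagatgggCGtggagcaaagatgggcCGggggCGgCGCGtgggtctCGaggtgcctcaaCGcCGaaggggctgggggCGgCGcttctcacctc
Cdkn2a Ink4a start: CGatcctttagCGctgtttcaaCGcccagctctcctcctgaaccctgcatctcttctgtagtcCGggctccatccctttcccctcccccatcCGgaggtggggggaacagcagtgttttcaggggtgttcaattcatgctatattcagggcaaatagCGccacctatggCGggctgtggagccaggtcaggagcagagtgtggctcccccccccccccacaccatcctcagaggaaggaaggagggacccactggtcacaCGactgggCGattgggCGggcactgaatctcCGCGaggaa
Cdkn2b: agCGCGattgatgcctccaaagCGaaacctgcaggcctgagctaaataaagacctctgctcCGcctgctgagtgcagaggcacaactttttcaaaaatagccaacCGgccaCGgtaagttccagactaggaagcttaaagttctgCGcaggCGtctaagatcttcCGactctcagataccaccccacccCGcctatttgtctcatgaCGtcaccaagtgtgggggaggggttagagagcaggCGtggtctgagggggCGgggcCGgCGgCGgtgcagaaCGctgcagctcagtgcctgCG
Cdkn1a upstream start: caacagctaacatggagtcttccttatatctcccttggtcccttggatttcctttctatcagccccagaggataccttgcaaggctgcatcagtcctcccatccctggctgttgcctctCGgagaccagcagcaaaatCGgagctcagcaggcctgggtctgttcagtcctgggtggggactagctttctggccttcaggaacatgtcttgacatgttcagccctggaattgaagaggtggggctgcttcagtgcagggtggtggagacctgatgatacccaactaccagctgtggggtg
Cdkn1a downstream start: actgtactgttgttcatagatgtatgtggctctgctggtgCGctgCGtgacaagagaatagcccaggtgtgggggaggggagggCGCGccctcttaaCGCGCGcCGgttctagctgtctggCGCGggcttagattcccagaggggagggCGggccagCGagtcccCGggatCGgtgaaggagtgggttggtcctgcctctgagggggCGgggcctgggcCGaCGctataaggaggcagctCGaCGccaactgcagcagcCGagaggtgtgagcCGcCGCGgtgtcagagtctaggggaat

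These windows differed widely in CpG content, which is given because CpG-rich promoters are where H3K4me3 and Polycomb marks are commonly found. The Arf window held 45 CG dinucleotides, more than 98.1% of the 32851 RefSeq promoter windows of the same length, whose median was 7. Ink4a held 12 and Cdkn2b 18. At Cdkn1a the downstream window held 23 and the upstream window 2, more than 14.1% of promoters. The GC box GGGCGG, searched on both strands, was present in 35.7% of all windows. It occurred 3 times at Arf, 2 times at the downstream start of Cdkn1a and 1 time each at Ink4a and Cdkn2b. The letters TTTGGCGC, a form of the E2F site present in 0.514% of windows on either strand, were in none of the 11 windows of the 7 genes that the table holds. Cdkn1c, Ccnd1 and Ccnd2 were not matched.

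**Figure D1:**
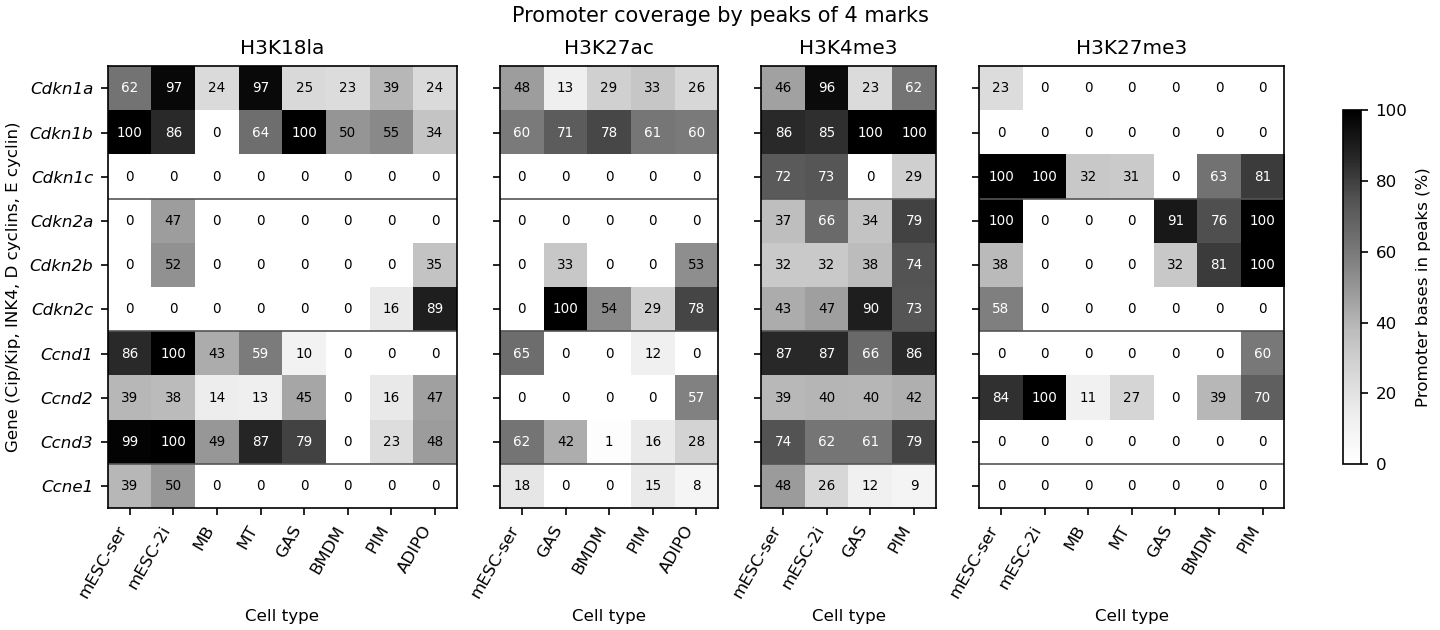
Percent of each gene's promoter bases that lie in peaks, for the 10 genes (rows, grouped by family) and every cell type profiled for each mark (columns); darker cells mean more of the promoter in peaks, and 0 means no call. H3K4me3 fills nearly every cell, H3K18la is absent from Cdkn1c in all 8 cell types, and H3K27me3 appears at 7 of the 10 genes.

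H3K4me3, the mark of CpG-rich promoters, was called at 39 of 40 combinations of gene and cell type, with Cdkn1c in GAS as the exception. It was called at 25 with the 5000 strongest peaks of each list, a reduction without a share of all genes. The share of all protein-coding promoters called in the full lists was 48.8% in mESC-ser, 61.8% in mESC-2i, 64.2% in GAS and 59.4% in PIM. Promoters marked in all 4 lists were 9 of the 10 members and 42.7% of all genes.

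H3K18la was called at 41 of 80 combinations. It was called at 16 with the 5000 strongest peaks of each list and at 8 with all lists of the mark at equal bases, reductions without a share of all genes. With all peaks, by cell type it marked 6 of the 10 promoters in mESC-ser (33.4% of all genes), 8 in mESC-2i (37.8%), 4 in MB (11.1%), 5 in MT (34.8%), 5 in GAS (36.1%), 2 in BMDM (18.5%), 5 in PIM (37.8%) and 6 in ADIPO (44.7%). The D-type cyclins held 19 of their 24 possible calls, the Cip/Kip genes 15 of 24, the INK4 genes 5 of 24 and Ccne1 2 of 8.

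H3K27ac, which was not profiled in MB, MT or mESC-2i, was called at 27 of 50 combinations, and at 17 with the 5000 strongest peaks of each list. With all peaks it marked 5 of the 10 promoters in mESC-ser (40.2% of all genes), 5 in GAS (47.0%), 4 in BMDM (34.0%), 6 in PIM (48.8%) and 7 in ADIPO (46.1%). Cdkn1a, Cdkn1b and Ccnd3 were marked in all 5 cell types, against 20.9% of all genes, and Cdkn1c and Cdkn2a in none, against 35.4%.

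H3K27me3, the Polycomb mark, was called at 23 of 70 combinations. It marked 6 of the 10 promoters in mESC-ser (27% of all genes), 2 in mESC-2i (22.5%), 2 in MB (12.5%), 2 in MT (20.1%), 2 in GAS (23.9%), 4 in BMDM (19.2%) and 5 in PIM (26.4%). Cdkn1c and Ccnd2 held 6 of 7 possible calls each and Cdkn2a and Cdkn2b 4 each, while Cdkn1b, Ccnd3 and Ccne1 held none. Over all genes, 53.9% had no H3K27me3 call in any of the 7 cell types.

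The gene body with 10 kb on either side takes in peaks outside the promoters as well, and H3K18la was called there at 48 of 80 combinations, with 7 of 10 genes in mESC-ser (47.9% of all genes), 8 in mESC-2i (52.0%), 5 in MB (24.4%), 6 in MT (52.3%), 6 in GAS (51.9%), 3 in BMDM (33.3%), 5 in PIM (53.2%) and 8 in ADIPO (58.6%). H3K27ac was called there at 32 of 50, with 6 of 10 genes in mESC-ser (50.2% of all genes), 8 in GAS (59.5%), 4 in BMDM (45.1%), 6 in PIM (59.2%) and 8 in ADIPO (57.7%). H3K4me3 was called there at 39 of 40, the same as at the promoters, with 10 of 10 genes in mESC-ser (56.2% of all genes), 10 in mESC-2i (69.6%), 9 in GAS (72.7%) and 10 in PIM (68.0%). H3K27me3 was called at 32 of 70, against 23 of 70 at the promoters, with 6 of 10 genes in mESC-ser (39.1% of all genes), 4 in mESC-2i (35.5%), 2 in MB (21.7%), 2 in MT (34.4%), 6 in GAS (42.0%), 5 in BMDM (28.5%) and 7 in PIM (39.6%). Windows of Cdkn2a and Cdkn2b overlap, so that a peak between them counts for both genes.

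Among the Cip/Kip inhibitors, Cdkn1a, which encodes p21, the main p53-induced inhibitor, was the only member with H3K18la in all 8 cell types, as were 2.69% of all genes. The percent of its promoter bases in H3K18la peaks was 62.5 in mESC-ser, 97.0 in mESC-2i, 23.9 in MB, 96.6 in MT, 24.9 in GAS, 23.2 in BMDM, 39.2 in PIM and 24.4 in ADIPO. The stem cells and MT thus stood above the other 5 cell types, whose values ranged from 23.2 to 39.2. In mESC-2i a peak of 55472 bp, most of it upstream of the gene, ranked 20 of 19908 by total signal. The start site itself differed between cell types: a peak covered the CpG-rich downstream start in 7 of 8 cell types, all but BMDM, and the CpG-poor upstream start in 4 (mESC-ser, mESC-2i, MT and PIM). H3K4me3 lay over the downstream start in 4 of 4 cell types and over the upstream start in mESC-2i and PIM only. H3K27me3 was called in mESC-ser alone, over 23.3% of the promoter and beside H3K18la, with 2516 bp in both kinds of peak. In GAS the H3K27ac call lay between 7562 bp and 19485 bp past the 5′ end and covered neither of these starts, so it counts through the start site of a shorter transcript.

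Cdkn1b encodes p27, which holds quiescent cells out of the cycle. Its promoter was in H3K18la peaks over 100% of its bases in mESC-ser and GAS, 86.3% in mESC-2i, 64.1% in MT, 54.5% in PIM, 50.1% in BMDM, 34.3% in ADIPO and 0% in MB. H3K27ac covered between 60% and 78.0% of it in 5 of 5 cell types, and H3K4me3 between 84.7% and 100% in 4 of 4. No H3K27me3 peak lay within 10 kb of the gene in any of 7 cell types. H3K18la was called in all 8 cell types over the gene with 10 kb on either side, since MB had a peak of 3064 bp from 6124 bp to 9188 bp past the 5′ end, which takes in the start of the non-coding gene Lockd at 8691 bp.

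Cdkn1c, which encodes p57 and is an imprinted gene expressed mainly from the maternal copy, was the opposite. It had no H3K18la peak within 10 kb of the gene in any cell type, and its only H3K27ac peak, of 4906 bp in GAS, lay upstream of the promoter. Promoters without H3K18la in all 8 cell types made up 30.3% of all genes. H3K27me3 covered 100% of its promoter in mESC-ser and mESC-2i, 81.2% in PIM, 62.9% in BMDM, 32.4% in MB, 31.3% in MT and 0% in GAS. The peak that held it was 50840 bp wide in mESC-ser and 55306 bp wide in mESC-2i, ranks 26 of 24436 and 87 of 24613 by total signal. In both stem cell states H3K4me3 lay inside this domain, over 71.7% and 73.0% of the promoter. Whether the 2 marks sat on the same or on different copies of the gene cannot be told apart in these data.

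**Figure D2:**
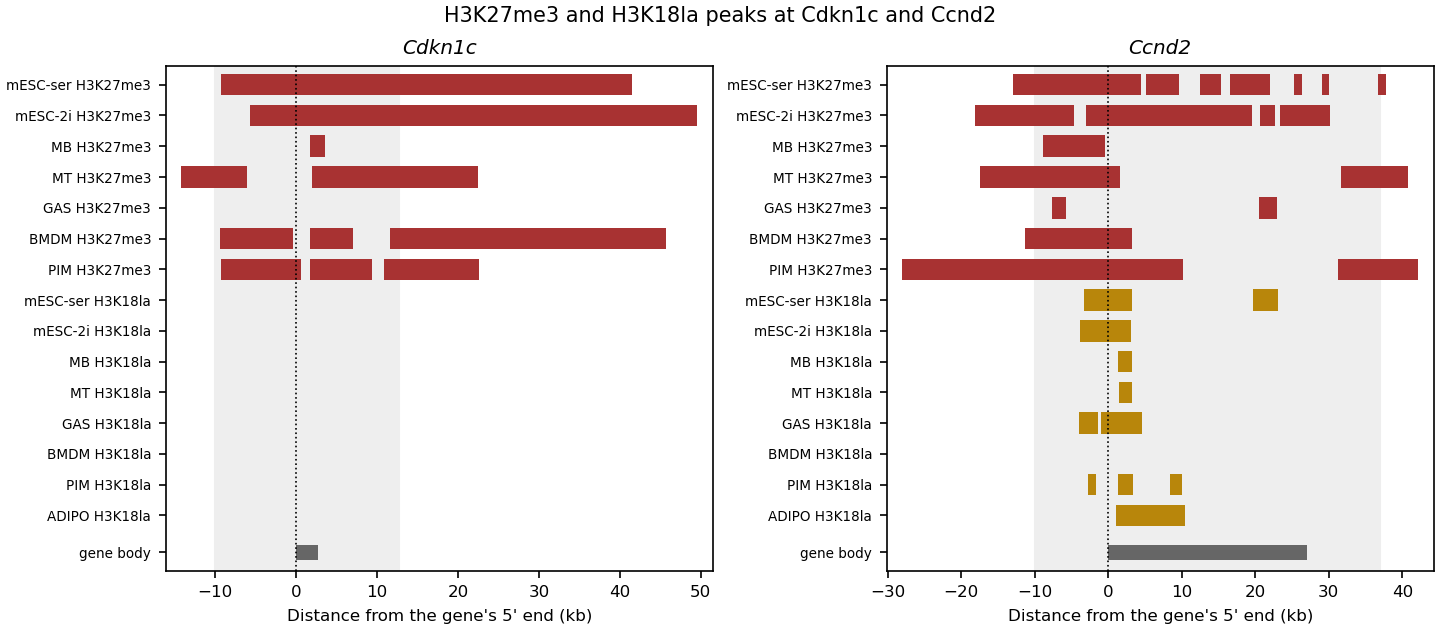
H3K27me3 (red) and H3K18la (ochre) peaks in each cell type at Cdkn1c and Ccnd2, drawn by distance in kb from the 5′ end of the gene, with the gene body in dark grey and the gene with 10 kb on either side shaded. Cdkn1c shows H3K27me3 in all cell types but GAS and no H3K18la, whereas Ccnd2 has H3K18la peaks inside or beside wide H3K27me3 domains in mESC-ser, mESC-2i, MB, MT and PIM, H3K18la without such a domain in GAS, and the domain without H3K18la in BMDM.

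The INK4 genes Cdkn2a and Cdkn2b lie side by side on chromosome 4 and were read together. The Arf start is 16386 bp past that of Cdkn2b and the Ink4a start a further 12461 bp along, and with 10 kb on either side the region spans 56.6 kb (chr4:89264471-89321039). H3K27me3 peaks covered 89.99% of it in PIM, 74.8% in GAS, 69.9% in mESC-ser, 68.8% in BMDM, 8.03% in mESC-2i and 0% in MB and MT. The lists themselves covered 3.89%, 5.24%, 3.29%, 3.75%, 5.51%, 2.08% and 6.56% of the genome in that order, so that the region stood 23.1-fold, 14.3-fold, 21.3-fold, 18.3-fold and 1.46-fold above it in the 5 lists with a peak. MT, whose list covered the most of the genome, had no peak in the region, as was the case for 77.3% of windows of the same length, and for 86.9% in MB. GAS, mESC-ser and BMDM lay close together, and their order cannot be set against replicate error. Of these 46550 windows along the genome, the share covered at least as much was 0.157% in PIM, 0.187% in mESC-ser, 0.380% in GAS, 0.986% in BMDM and 18.01% in mESC-2i. The mESC-2i coverage fell to 0% with the 5000 strongest peaks of each list and at equal bases.

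The shape of the domain differed as well. In PIM it was 1 peak of 50907 bp, rank 35 of 15798 by total signal. In mESC-ser, GAS and BMDM it was broken into 8, 9 and 5 peaks, the widest of 15848 bp, 10043 bp and 14808 bp. In mESC-2i the only peak, of 4541 bp, lay at the 3′ end of Cdkn2a around the start of the lincRNA Gm12606, and covered no promoter base of Cdkn2a or Cdkn2b. An H3K4me3 peak of 4237 bp and an H3K18la peak of 5290 bp lay over the same stretch in mESC-2i. GAS is a whole tissue, in which all 3 endothelial and all 3 fibroblast markers, 2 of 5 macrophage markers (Csf1r and Spi1) and 2 of 5 adipocyte markers (Pparg and Lipe) also had H3K18la at their promoters. Such calls were not limited to GAS: PIM had 3 of 5 adipocyte and 2 of 3 endothelial markers, and BMDM and mESC-ser each had 2 of 3 endothelial markers. ADIPO had 2 of 6 muscle (Acta1 and Des), 2 of 5 macrophage (Spi1 and Cd68) and 2 of 3 fibroblast markers (Col1a1 and Dpt). The part of such cells in the results was not tested. In a tissue a mark in some of the nuclei and a weaker mark in all of them cannot be told apart.

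H3K27me3 was called over both the Arf and the Ink4a start in 4 of 7 cell types, mESC-ser, GAS, BMDM and PIM, and over the start of Cdkn2b in 3, as GAS had peaks on either side of it only. Active marks fell on the same starts in other combinations. H3K4me3 lay over Arf and Cdkn2b in 4 of 4 cell types, and over Ink4a, the CpG-poorer start, in mESC-2i and PIM. H3K18la lay over Arf in mESC-2i alone, over Cdkn2b in mESC-2i and ADIPO, and over Ink4a in none of 8. H3K27ac was called at Cdkn2b in GAS and ADIPO and at neither start of Cdkn2a in any of 5.

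In PIM, H3K4me3 and H3K27me3 shared 6342 of the 8002 promoter bases of Cdkn2a and 2972 of the 4001 of Cdkn2b. They shared 2943 and 1271 bases in mESC-ser. In GAS they shared 2073 at Cdkn2a and 0 at Cdkn2b, where both promoter calls were present but lay apart. Whether both marks were on the same nucleosomes was not tested. The genes most similar to Cdkn2a over the 24 lists were Esx1, Lhx9 and Isl2, with mean absolute differences of 7.34, 7.73 and 8.01 points of promoter percent, and those most similar to Cdkn2b were Rasl11b, Zfp354b and Peg10, with 7.94, 8.56 and 10.9 points. The median gene differed by 27.1 points from Cdkn2a and by 24.9 points from Cdkn2b.

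**Figure D3:**
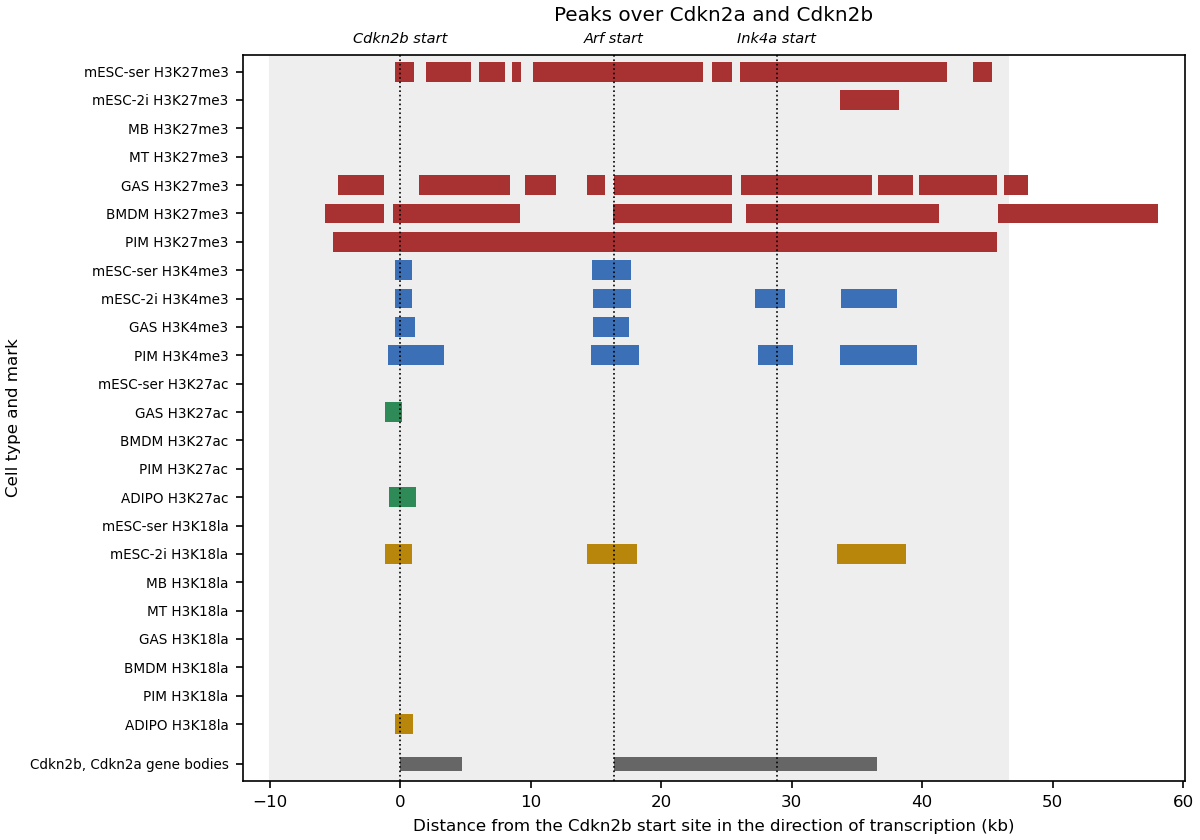
Peaks of H3K27me3 (red), H3K4me3 (blue), H3K27ac (green) and H3K18la (ochre) in each list over Cdkn2b and Cdkn2a, drawn by distance in kb from the Cdkn2b start site in the direction of transcription; dotted lines mark the 3 start sites and grey bars the gene bodies. H3K27me3 spans the region in mESC-ser, GAS, BMDM and PIM, is limited to 1 peak past Ink4a in mESC-2i and is absent in MB and MT.

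Between serum and 2i stem cells, the same line in different media, H3K27me3 calls differed at all 3 INK4 genes and at Cdkn1a, and H3K18la calls at Cdkn2a and Cdkn2b. H3K27me3 was called in mESC-ser and not in mESC-2i at 4 of the 10 promoters, Cdkn1a, Cdkn2a, Cdkn2b and Cdkn2c, and at 8.57% of all promoters. The reverse was seen at none of the 10 and at 4.05% of all promoters, although the mESC-2i list covered more of the genome than the mESC-ser list. The H3K27me3 peak at Cdkn1a in mESC-ser ranked 11375 of 24436 by total signal, so it was not among the 5000 strongest. H3K18la was called in mESC-2i and not in mESC-ser at Cdkn2a and Cdkn2b, against 9.19% of all promoters, and at none of the 10 the other way round, against 4.79%. Here the mESC-2i list was the larger, with 128.1 Mb in peaks against 82.4 Mb in mESC-ser. The peaks at Cdkn2a and Cdkn2b ranked 14820 and 16090 of its 19908 by total signal, so that neither was among the 5000 strongest. At Cdkn1c and Ccnd2, by contrast, H3K27me3 covered 100% of the promoter in mESC-2i. Promoters with both H3K4me3 and H3K27me3 were 6 of the 10 in mESC-ser (12.8% of all genes), 2 in mESC-2i (14.2%), 2 in GAS (12.1%) and 5 in PIM (14.5%).

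Cdkn2c, which encodes p18Ink4c and lies elsewhere on chromosome 4, was unlike its relatives. H3K27ac covered 100% of its promoter in GAS, 78.4% in ADIPO, 54.3% in BMDM, 29.4% in PIM and 0% in mESC-ser. H3K18la covered 89.5% in ADIPO and 15.98% in PIM and was not called in the other 6 cell types, among them GAS. At the promoter, H3K27me3 was called in mESC-ser only, over 58.0% of it, in a peak of 11721 bp that ranked 642 of 24436. H3K27me3 peaks of 3132 bp in mESC-2i and 2152 bp in PIM lay past the promoter. Both held the start of the neighbour 9630013D21Rik, 9336 bp past the 5′ end, as did the mESC-ser peak. The start of Faf1, at -9399 bp from the 5′ end of Cdkn2c, lies in its wider window but not in its promoter.

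Among the D-type cyclins, Ccnd1 had more of its promoter in H3K18la peaks in the stem cells than in the other cell types. H3K18la covered 100% of its promoter in mESC-2i, 86.3% in mESC-ser, 59.5% in MT, 42.7% in MB, 10.4% in GAS and 0% in BMDM, PIM and ADIPO. H3K4me3 remained at the promoter in PIM (86.3%) and in GAS (66.3%). H3K27me3 was called in PIM alone, in 2 peaks of 2575 bp and 4578 bp that covered 60.4% of the promoter and shared 3462 bp with H3K4me3. H3K27ac was called in mESC-ser (64.7%) and, over a peak of 698 bp, in PIM (12.2%).

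At Ccnd2, H3K18la and H3K27me3 were called in the same cell type more often than at any other member. H3K18la covered 46.7% of its promoter in ADIPO, 44.8% in GAS, 39.2% in mESC-ser, 38.2% in mESC-2i, 16.4% in PIM, 13.7% in MB, 12.7% in MT and 0% in BMDM. H3K27me3 covered 100% in mESC-2i, 84.3% in mESC-ser, 69.8% in PIM, 39.2% in BMDM, 26.9% in MT, 11.4% in MB and 0% in GAS. Both were called in 5 of the 7 cell types with both lists, where the share of all genes with both calls was 8.31% in mESC-ser, 4.82% in mESC-2i, 0.391% in MB, 3.14% in MT and 6.52% in PIM. The peaks overlapped by 5193 bp in mESC-ser, 5054 bp in mESC-2i and 2165 bp in PIM, but by only 43 bp in MT and 0 bp in MB. There H3K27me3 reached from upstream to -485 bp (MB) and 1564 bp (MT) relative to the 5′ end, and H3K18la began at 1380 bp and 1521 bp. In GAS, where H3K27me3 was absent from the promoter, the H3K18la peak was 5622 bp wide, against 6440 bp in mESC-ser and 6822 bp in mESC-2i, where H3K27me3 was present. In ADIPO, where H3K27me3 was not profiled, it was 9422 bp wide. ADIPO was also the only cell type with H3K27ac there, over 57.1% of the promoter. The antisense gene 9330179D12Rik starts within the same promoter, 2567 bp past the 5′ end, and its marks cannot be told apart from those of Ccnd2. Genes most similar to Ccnd2 were Ebf1, Paqr4 and Fignl2, with differences of 11.3, 12.4 and 12.9 points of promoter percent against 30.2 for the median gene.

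Ccnd3 carried long H3K18la domains, above all in the stem cells. H3K18la covered 100% of its promoter in mESC-2i, 98.8% in mESC-ser, 87.4% in MT, 79.0% in GAS, 49.2% in MB, 47.8% in ADIPO, 22.5% in PIM and 0% in BMDM. The peak at its first start was 33668 bp wide in mESC-ser, rank 53 of 19057, and 29080 bp in mESC-2i, rank 178 of 19908. Both peaks, and that of 13745 bp in GAS, also held the start of the neighbour Taf8 at -2759 bp. H3K27me3 was not found within 10 kb of the gene in any of 7 cell types. H3K27ac was called in 5 of 5 cell types, between 1.22% in BMDM and 61.9% in mESC-ser. The BMDM call was the edge of a peak from -3493 bp to -1855 bp relative to the 5′ end, which holds the start of the neighbour Taf8 at -2759 bp. The gene is 94641 bp long and its start sites form 2 clusters near either end, with a RefSeq start in each. H3K18la peaks covered both of those starts in 6 of 8 cell types, all but BMDM and PIM.

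Ccne1, the cyclin that activates CDK2 at the end of G1, had H3K18la at its promoter in mESC-ser (39.2%) and mESC-2i (49.5%) and in none of the other 6 cell types. In mESC-2i the peak was 9427 bp wide. H3K4me3 was called in 4 of 4 cell types but thinned from 48.3% in mESC-ser and 25.8% in mESC-2i to 11.9% in GAS and 8.72% in PIM. H3K27ac covered 17.9% in mESC-ser, 15.3% in PIM and 8.30% in ADIPO. No H3K27me3 was called at the promoter.

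The comparison of MB with MT asks how the marks of these genes differ between cells that can divide and cells that have left the cycle. H3K18la was called in both at Cdkn1a, Ccnd1, Ccnd2 and Ccnd3, which is 4 of the 10 promoters against 10.2% of all. Cdkn1b was called in MT and not in MB, as were 24.6% of all promoters, and none was called in MB alone, as were 0.91%. The MB list came from 1 sample with 13550 peaks over 1.54% of the genome, and the MT list from 2 samples with 33991 peaks over 5.19%.

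The peaks of the 2 lists differed in width and position. Their ranks give the standing of a peak within its own list, and since the lists differ in length and coverage they do not measure a change. At Cdkn1a the MB peak was 2579 bp wide, sat on the downstream start and ranked at 52.4% of the list, counted from the strongest peak by total signal. The MT peak was 12552 bp wide, spanned both starts and ranked at 6.73%. At Ccnd3 the peak over the first start was 2186 bp wide in MB (93.8%) and 5307 bp in MT (13.6%), and the one near the far start was 3682 bp (46.5%) and 8708 bp (8.09%). By maximum signal the best promoter peak of Cdkn1a ranked at 71.9% in MB and 23.9% in MT, and that of Ccnd3 at 66.3% and 22.0%. Peaks within the window of Ccnd3 covered 10.8 kb in MB and 39.6 kb in MT.

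At Ccnd1 the MB peak was the wider one, although more of the promoter lay in peaks in MT (59.5%) than in MB (42.7%). In MB a peak of 8040 bp reached from -7595 bp to 445 bp relative to the 5′ end and ranked at 9.05%, the strongest of the members in that list. MT had 2 narrower peaks, of 2373 bp at the start (77.1%) and of 3935 bp inside the gene (28.7%), and none further upstream. By maximum signal in place of total signal, the best peak ranked at 46.4% in MB and 43.5% in MT. Ccnd2 had a narrow peak past its start in both, of 1813 bp (71.6%) and 1678 bp (76.5%).

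The MT list was also reduced, by total signal, to as many bases as the MB list, an alternative chosen after the data were seen. In it Cdkn1a kept its MT peak of 12552 bp and Ccnd3 had 32.8 kb of its window in peaks, whereas Cdkn1b, Ccnd1 and Ccnd2 had no MT peak left. With only the 5000 peaks of highest total signal in each list, H3K18la was called at Ccnd1 in MB and at Cdkn1a and Ccnd3 in MT. With both lists reduced to the bases of the smallest H3K18la list, that of BMDM, it was called at Ccnd1 in MB and at none of the 10 in MT. The share of all genes called was not taken for these reduced lists. The markers fixed for muscle were called for H3K18la at 3 of 6 promoters in MB (Myod1, Myf5 and Des) and 6 of 6 in MT. MT also had calls at 3 of 5 macrophage markers (Csf1r, Spi1 and Cd68) and 2 of 3 fibroblast markers, where MB had 0 of 5 and 0 of 3. Their part in the MT calls was not tested.

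**Figure D4:**
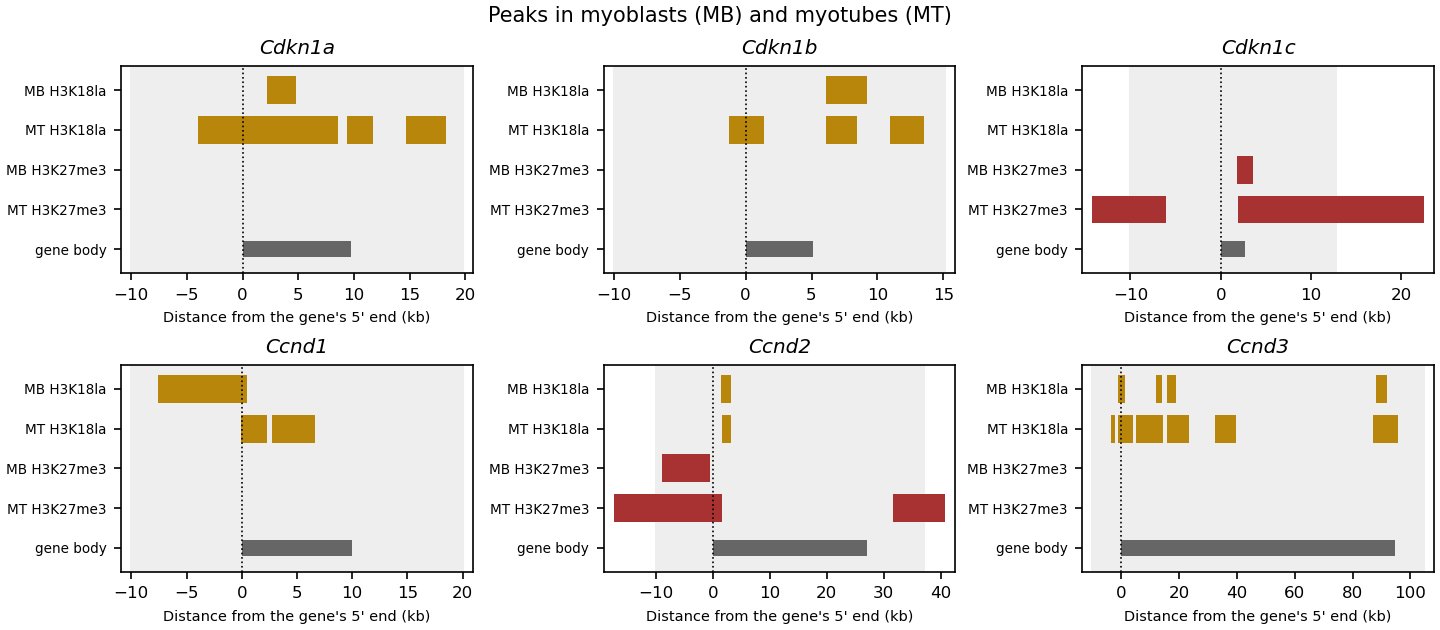
H3K18la (ochre) and H3K27me3 (red) peaks in MB and MT at the 6 genes with a call in either, by distance in kb from the 5′ end of each gene; gene bodies are dark grey and the gene with 10 kb on either side is shaded. H3K18la is wider in MT at Cdkn1a and Ccnd3, lies on the upstream side in MB and over the gene body in MT at Ccnd1, and lies over the start of Cdkn1b in MT only; with the MT list reduced to the bases of the MB list, Ccnd1 and Cdkn1b have 0 kb in MT peaks.

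H3K27me3 was called at the same members in MB and MT, Cdkn1c and Ccnd2, against 11.7% of all promoters called in both. With the 5000 strongest peaks of each list Ccnd2 alone was called in MB, and both genes in MT. With all peaks none was called in MT alone, against 8.42% of all promoters, although the MT list covered 173 Mb and the MB list 54.8 Mb. At Cdkn1c the peak past the start was 1858 bp wide in MB (58.2%) and 20530 bp in MT (7.63%). By maximum signal it ranked at 26.96% and 24.7%, and it covered nearly the same share of the promoter in both, 32.4% and 31.3%. At Ccnd2 the upstream peak was 8391 bp in MB (8.44%) and 19022 bp in MT (7.02%). Cdkn2a, Cdkn2b, Cdkn2c, Cdkn1a and the other cyclins had no H3K27me3 peak within 10 kb in either.

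H3K18la and H3K27me3 were then compared at each promoter over the 7 cell types with both marks, as the percent of the promoter in H3K18la peaks minus that in H3K27me3 peaks. The mean difference was 49.1 ± 33.3 points at Cdkn1a (SD over cell types, n = 7), with 7 of 7 above 0. It was 65.0 ± 35.3 points at Cdkn1b (6 of 7 above 0, MB at 0) and 62.4 ± 39.4 at Ccnd3 (6 of 7 above 0, BMDM at 0). At Cdkn1c it was -58.3 ± 38.4 points, below 0 in 6 of 7 with GAS at 0. These 4 genes had unadjusted p of 0.0156 for Cdkn1a, the smallest that 7 cell types allow, and 0.0312 for each of the others (exact two-sided sign-flip permutation test). Cell types are taken as independent in it, while both stem cell states are 1 line, MT were made from MB, and BMDM and PIM are both macrophages. After Benjamini-Hochberg adjustment over all 21755 genes the value was 0.234 for each of the 4, the smallest of any gene, and no member and no other gene passed 0.05. With the 5000 strongest peaks of each list the difference was 40.4 points at Cdkn1a, 28.6 at Cdkn1b, 45.9 at Ccnd3 and -53.6 at Cdkn1c, with more cell types at 0 and p of 0.125, 0.5, 0.125 and 0.0625 in the same exact test. With the lists of each mark reduced to equal bases it was 17.2, 7.16, 24.2 and -49.3 points in the same order, with exact p of 0.5, 1, 0.25 and 0.0625. Ccnd2 was the only member with an unadjusted p under 0.05 in either reduction. With all peaks, an unadjusted p under 0.05 was reached by 2984 genes. These were 7.11% of all genes with H3K18la as the higher mark and 6.61% with H3K27me3.

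The other 6 genes varied in sign between cell types or were mostly at 0. The mean was 34.1 ± 55.4 points at Ccnd1 (5 of 7 above 0, PIM below) and 12.7 ± 21.9 at Ccne1 (2 of 7 above 0). It was -45.7 ± 60.2 at Cdkn2a, -28.5 ± 51.7 at Cdkn2b, -23.8 ± 37.6 at Ccnd2 and -6.00 ± 23.7 at Cdkn2c. Single cell types weighed on some of these means, which were -16.6 at Cdkn2b without PIM, 2.66 at Cdkn2c without mESC-ser or -9.67 without PIM, and 6.53 and 8.26 at Ccne1 without mESC-2i and without mESC-ser. At equal bases the mean was 6.10 at Ccnd1, 0 at Ccne1 and -44.6 at Ccnd2, with 5000 peaks it was 7.08 at Ccne1 and -36.4 at Ccnd2, and with protein-coding transcripts only it was 24 at Ccne1 and -14.4 at Ccnd2. With all peaks and transcripts, unadjusted p ranged from 0.125 at Cdkn2a to 1 at Cdkn2c (exact sign-flip permutation test, n = 7). Cdkn2a and Cdkn2b were below 0 in 4 of 7 cell types, at 0 in MB and MT, and above 0 in mESC-2i only.

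Stem cells, which alone were processed as whole cells, are given apart. Over the 5 cell types processed as nuclei the mean was 41.5 points at Cdkn1a, 53.8 at Cdkn1b, 47.6 at Ccnd3 and -41.6 at Cdkn1c, and over the 2 stem cell states it was 68.1, 93.1, 99.4 and -100. At Cdkn2b the sign differed, with -42.6 points in nuclei and 6.75 in whole cells, and at Cdkn2c it did too, with 3.20 and -29.0. Ccnd1 stood at 10.4 points in nuclei and 93.2 in whole cells, and Ccne1 at 0 and 44.4. Neither 5 nor 2 cell types can reach p of 0.05 in this test, and cell type and kind of input cannot be told apart.

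**Figure D5:**
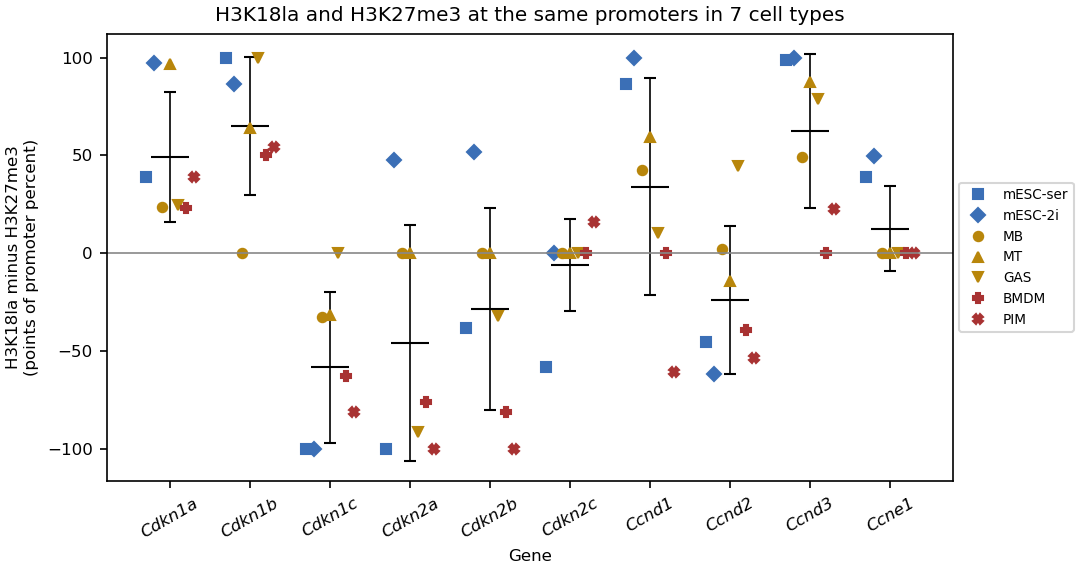
Percent of the promoter in H3K18la peaks minus percent in H3K27me3 peaks for the 10 genes in the 7 cell types with both marks; each point is a cell type, horizontal bars are means and whiskers the SD over cell types. Cdkn1a, Cdkn1b and Ccnd3 lie at or above 0 in all 7, Cdkn1c lies at or below 0, and Cdkn2a and Cdkn2b have mESC-2i as their only positive point.

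The 10 genes were set beside 36 other genes of the cell cycle, among them CDKs, E2F factors, the retinoblastoma family and mitotic cyclins. At those genes H3K18la was called at 154 of 288 combinations (53.5%), H3K27ac at 124 of 180, H3K4me3 at 138 of 144 and H3K27me3 at 19 of 252 (7.54%), while the members had H3K27me3 at 23 of 70. Over all genes the share called per list was 11.1% to 44.7% for H3K18la, 34.0% to 48.8% for H3K27ac, 48.8% to 64.2% for H3K4me3 and 12.5% to 27% for H3K27me3. No H3K27me3 call in any of 7 cell types was found at 28 of the 36, and at 53.9% of all genes. Ccna1, a cyclin of the germ line, was the only one with H3K27me3 in 4 or more cell types. It was called in 7 of 7 and had H3K18la in none of 8. Cdkn3, which encodes a phosphatase acting on CDKs, and Cdc25c, which activates CDK1 at mitosis, also lacked H3K18la in all 8 cell types, as did 30.3% of all genes, but had no H3K27me3 either. Between MB and MT, 13 of the 36 had H3K18la in MB and 20 in MT, of which 8 were in MT alone and 1 was in MB alone. Over all genes the shares were 11.1% in MB, 34.8% in MT, 24.6% in MT alone and 0.91% in MB alone.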

How the data were processed

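Per the labels and the study's methods, the authors trimmed reads (Trim Galore 0.6.6), aligned them to mm10 (Bowtie2 2.4.4), combined fragment coverage of replicates with bedtools 2.30 and called peaks with SEACR 1.3 (stringent, top 1%, no control). The deposited total signal and maximum signal of a peak are sums and maxima of coverage, not scaled for depth, so signal was ranked within a list only. Read depth was not analysed here. In-peak signal summed to between 527 and 4374 Mb per list (base pairs times coverage), and lists held 11002 to 36813 peaks on the chromosomes used. Promoters (TSS ± 2000 bp) came from GENCODE M21, and 1 bp of overlap was a call. The members, lists of genes and tests were chosen with earlier results of these data known. Named besides the 10 genes were cell cycle genes with H3K27me3 calls in 4 or more of 7 cell types or H3K18la calls in none of 8, the 3 genes most similar to Cdkn2a, Cdkn2b and Ccnd2 each (those for Cdkn1c are not reported here), and neighbours sharing a window. Cell type markers fixed for each label were called for H3K18la at 5 of 5 or 6 of 6 promoters, apart from MB (3 of 6). Of 3 stem cell lists not named for a medium, the labels of the serum samples cite that of H3K18la by name, and those of H3K27me3 and H3K4me3 were assigned to mESC-ser. Interval functions were checked against bedtools 2.31.1, and the sign-flip permutation test was run on simulated differences to check the code. Genes given a constant sign must reach the smallest p there, so the check does not measure power. Python 3.11.15, numpy 2.4.6 and pandas 2.3.3 were used.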

Additional observations from a re-analysis of the deposited data

How the results depend on the processing

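Promoters of 1000 bp on either side, protein-coding transcripts only and a minimum of 500 bp in peaks left the counts of promoter calls within 1.5 times of those reported for all 4 marks. Keeping the 5000 peaks of highest total signal per list gave 16 H3K18la, 17 H3K27ac and 25 H3K4me3 calls. The share of all genes called was not taken for any reduced list. A loss at these genes thus cannot be told apart from a loss at all genes. H3K18la calls fell to 8 when all lists of the mark were reduced to the bases of the smallest list, that of BMDM. H3K18la then remained at 1 member in MB (Ccnd1) and 0 in MT, against 1 (Ccnd1) and 2 (Cdkn1a and Ccnd3) with 5000 peaks. With the MT list alone reduced to the bases of the MB list, an alternative added after the data were seen, H3K18la was called at 2 members in MT and H3K27me3 at both of those reported. H3K27me3 with 5000 peaks was called at 1 member (Ccnd2) in MB. Over Cdkn2a-Cdkn2b, H3K27me3 covered 60.8% in mESC-ser, 0% in mESC-2i, 56.6% in GAS and 60.8% in BMDM with 5000 peaks, 63.4%, 0%, 56.6% and 60.8% at equal bases, and 88.3%, 7.90%, 81.6% and 77.6% without the 10 kb on either side, where PIM had 100%. MB and MT had none in all of these.

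No gene passed an adjusted p of 0.05 in the comparison of H3K18la with H3K27me3 under any alternative. Of the members, 1 (Ccnd2) had an unadjusted p under 0.05 in the exact sign-flip permutation test with 5000 peaks and 1 (Ccnd2) at equal bases, where the mean was 17.2 points at Cdkn1a, 7.16 at Cdkn1b, 24.2 at Ccnd3 and -49.3 at Cdkn1c. Leaving out each cell type in turn gave 1 to 2 members. With 6 cell types left, and 1 of them at 0 for Cdkn1b, Cdkn1c and Ccnd3, the smallest p these genes can reach is 0.0625, so that this loss says nothing about their stability. Their means ranged from 59.2 to 75.8 points at Cdkn1b, from -67.96 to -51.3 at Cdkn1c and from 56.2 to 72.8 at Ccnd3. The sign of a member's mean changed once, at Cdkn2c, whose mean lay between -9.67 and 2.66 points when cell types were left out, the latter without mESC-ser. By maximum signal in place of total signal, the median rank of the best promoter peak moved from 25.8% to 43.5% for H3K18la, from 15.5% to 21.7% for H3K27ac, from 13.4% to 26.4% for H3K4me3 and from 7.02% to 5.32% for H3K27me3. The cause of these changes was not tested.

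No paired analysis was possible because replicates were pooled before peaks were called and the lists carry no replicate numbers, and replicates were not left out for the same reason. Marks were paired only within cell types.

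Read depth was not analysed here. A promoter without a peak in a list was below the authors' threshold in it and is not shown to lack the mark.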
